A study of Oryza sativa Japonica Group with 8 samples.

Results

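The genes described here had lower levels in non-transgenic rice seedlings at room temperature than in non-transgenic seedlings after a cold shock. They were also lower there than in unstressed seedlings carrying RD29A:DREB1a. They were chosen from the measured values. Values are CPM, the count divided by the library total times 1000000, and the level of a group was taken as log2 of the mean CPM of its 2 libraries after adding 1. A gene was kept where the cold level of the non-transgenic group exceeded its room-temperature level by at least 0.8, where the transgenic group at room temperature exceeded the non-transgenic group at room temperature by at least 0.8, and where the cold levels of both genotypes lay within 0.7 of each other. Of 37849 gene IDs that start with Os, 54 met these 3 conditions, and all 54 had enough counts to be tested. Because these contrasts made the choice, the differences below are descriptions and carry no test.

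The study pooled RNA from the aerial parts of 10-day-old seedlings of cultivar Taipei 309 into 4 groups. T_CS is transgenic after 20 h on crushed ice, T_RT is transgenic kept at room temperature, N_CS is non-transgenic after the same cold shock, and N_RT is non-transgenic at room temperature. T seedlings carry Arabidopsis DREB1a behind the Arabidopsis RD29A promoter, stacked at a Cre-lox site with the marker genes NPTII, GUS, GFP and pporRFP, so T differs from N in the markers as well as in DREB1a. The labels name lines 11, 20 and 29 in the T pool, chosen for alike DREB1a induction in the cold, and call N wild type, while the methods name homozygous lines 11 and 29 as well as hemizygous lines, do not mention line 20 or say which lines were pooled, and take the T5 founder line as N. Each group is 1 pool of 6 seedlings, and its 2 libraries are technical replicates. Every spread and every false discovery rate (FDR) below therefore compares pools and does not cover plants. In such pools, more RNA per cell and more cells of one type cannot be told apart, and leaf marker genes were not checked here because the sources used do not pair the IDs with names. The DREB1a transgene is not a rice gene ID and was not analysed here.

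DREB1 proteins, also called CBF, are transcription factors that bind the dehydration-responsive element in promoters. In Arabidopsis they are switched on early in the cold and raise a set of cold-regulated genes whose products protect cells. The RD29A promoter carries such elements itself and is driven by cold, drought and salt. Rice has DREB1 genes of its own, of which OsDREB1C is among the 54 genes. Of 65 rice genes whose IDs the published lists pair with names, OsDREB1C is the only one found here. Most of the 65 were listed for a level in T_CS well above that in N_CS, which the third condition excludes. The other 53 genes are given by ID, since none of the sources used here describes them.

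Library totals ranged from 18963211 to 24405824 counts. The 54 genes spanned a wide range of abundance, with a mean over the 8 libraries between 0.773 and 1518 CPM and a median of 13.5 CPM, against 10.4 CPM over the 28133 Os IDs tested. The libraries of a group differed by a median of 0.12 on the log2(CPM + 1) scale over genes and groups, and by 0.75 at most. In N_RT, where the genes were lowest, the median gene had 148 counts over both libraries. For 8 genes there were 25 counts or fewer, and the lowest had 8.

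**Figure D1:**
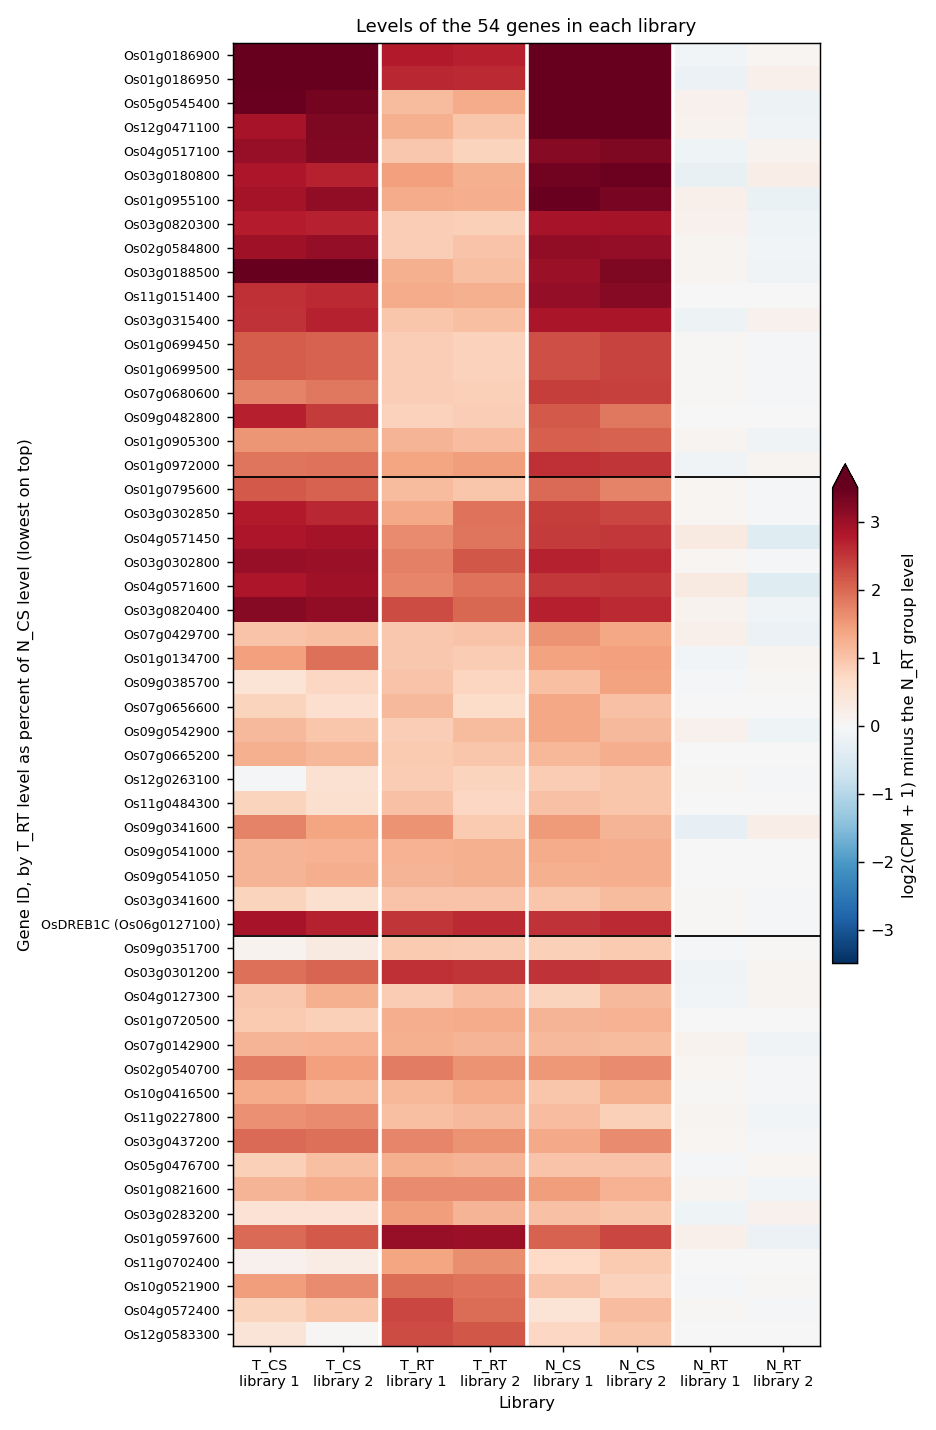
Level of each of the 54 genes (rows) in each of the 8 libraries (columns), as log2(CPM + 1) minus the N_RT group level, with colours capped at 3.5. Rows run from the lowest to the highest T_RT level as a percent of the N_CS level, and black lines mark 50% and 100%. The upper 18 genes are palest in T_RT among the raised groups, and the last 4 are darkest there.

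In non-transgenic seedlings the 54 genes were higher after cold shock by a median of 1.73 (N_CS minus N_RT, range 0.81 to 6.31). At room temperature they were higher in transgenic than in non-transgenic seedlings by a median of 1.22 (T_RT minus N_RT, range 0.83 to 3.01). Over all tested Os IDs the same medians were -0.08 and -0.06. As plain ratios of mean CPM, without the added 1, the median gene stood 5.90-fold higher in N_CS and 2.91-fold higher in T_RT than in N_RT. In all 54 genes both N_CS libraries and both T_RT libraries lay above both N_RT libraries, which held for 28.6% and 22.2% of all tested IDs. All 54 also passed an FDR of 0.01 in edgeR, as 19.7% of tested IDs did upward in N_CS versus N_RT and 9.44% in T_RT versus N_RT. None was lower, against 21.1% and 7.49% of tested IDs in the same comparisons. These contrasts chose the genes, so nothing is read from the counts. Both differences are taken from the same N_RT libraries. A low N_RT pool and 3 raised pools cannot be told apart from these values.

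The IDs raised in N_CS and the IDs raised in T_RT, both against N_RT, overlapped in part. A difference of at least 0.8 was reached by 425 Os IDs in N_CS minus N_RT and by 401 in T_RT minus N_RT. The 114 IDs in both sets made up 26.8% of the cold set and 28.4% of the transgenic set. Over all tested Os IDs, 1.43% reached 0.8 in T_RT minus N_RT and 1.51% in N_CS minus N_RT. Both differences subtract the same N_RT libraries, so IDs chosen for one tend to be higher in the other, and nothing is read from this overlap. Of the 114, 54 (47.4%) are the genes described here, 40 were excluded because T_CS lay more than 0.7 below N_CS, and 20 because it lay more than 0.7 above. The 40 had median differences of 1.45 in N_CS minus N_RT and 1.08 in T_RT minus N_RT, and the 20 had 0.98 and 1.30. In the 371 cold-raised IDs that are not among the 54, the median T_RT minus N_RT was 0.30, against -0.06 over all tested Os IDs. The difference was above 0 in 282 of the 371. In the 347 IDs raised in T_RT that are not among the 54, the median N_CS minus N_RT was 0.12, with 210 above 0. Over all tested Os IDs that median was -0.08. The shared N_RT libraries bear on these counts above 0 as well, and no share above 0 over all tested IDs is given. Nothing is read from them.

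**Figure D2:**
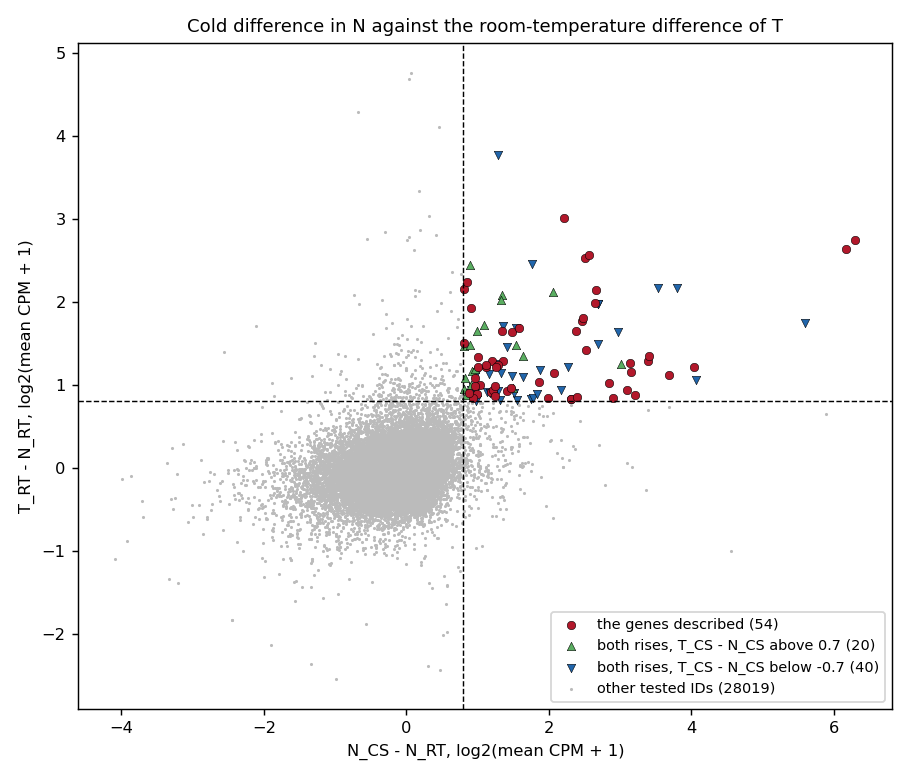
Difference of N_CS from N_RT (horizontal axis) against that of T_RT from N_RT (vertical axis), both on the log2(mean CPM + 1) scale, for all 28133 tested Os IDs, with dashed lines at 0.8. Red circles are the 54 genes, blue triangles the 40 IDs excluded for a T_CS level below the N_CS level and green triangles the 20 excluded for one above it, and all 114 lie in the upper right corner by the rule.

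OsDREB1C (Os06g0127100), a rice member of the DREB1 family, had nearly the same level in all groups except N_RT. It had 10.6 and 9.23 CPM in T_CS, 7.90 and 8.58 CPM in T_RT and 8.09 and 8.50 CPM in N_CS, against 0.615 and 0.518 CPM in N_RT. The T_RT and N_CS libraries overlapped, and both T_CS libraries lay above them. Mean CPM was 14.5-fold higher in T_RT than in N_RT and 14.6-fold higher in N_CS than in N_RT, where the N_RT mean rests on 25 counts. On the scale of the rule, which shrinks the differences of low genes, these were 2.56 and 2.57. The warm transgenic level was 99.3% of the cold non-transgenic level.

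The other 2 rice DREB1 genes in the published lists did not meet the rule. OsDREB1G (Os02g0677300) had 31.1 and 33.6 CPM in T_CS, 9.65 and 8.86 CPM in T_RT and 7.30 and 10.4 CPM in N_CS, against 1.11 and 1.61 CPM in N_RT. It had both differences, but its T_CS level was 1.76 above its N_CS level. OsDREB1A (Os09g0522200) had 89.2 and 84.2 CPM in T_CS and 94.2 and 100.3 CPM in N_CS, with 19.4 and 21.2 CPM in T_RT against 67.9 and 63.2 CPM in N_RT. Its T_RT level was thus 1.64 below its N_RT level, the opposite of OsDREB1C.

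Outside the DREB1 family, no gene of the published lists had both differences. Those lists were chosen on these same libraries, so they are no independent evidence. Only 3 of the 65 had N_CS minus N_RT of at least 0.8, namely OsDREB1C, OsDREB1G and the heat-shock factor gene OsHsfB2b. In T_RT minus N_RT, 14 of the 65 reached 0.8. Not all of the 65 had enough counts to be tested, and IDs with so few counts can hardly reach 0.8 on this scale. Tested were 3 of 7 listed genes of secondary metabolism, 7 of 8 of protective proteins and 4 of 5 other genes of the paper. None of the 5 JAZ genes, repressors of jasmonate signalling, reached 0.8 in either difference. Of the 8 WRKY genes 3 reached it in T_RT minus N_RT, as did 3 of the 6 ERF genes, and none of these transcription factor genes reached it in N_CS minus N_RT.

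The 54 genes differed in how far the warm transgenic level went towards the cold non-transgenic level. Mean CPM in T_RT was between 8.31% and 401% of that in N_CS, with a median of 74.5%. It was under 50% in 18 genes, between 50% and 100% in 19 and above 100% in 17. Both N_CS libraries lay above both T_RT libraries in 31 of the 54 genes, against 34.0% of tested IDs. Both T_RT libraries lay above both N_CS libraries in 10 of the 54, against 40.8% of tested IDs. In edgeR, 27 genes were lower in T_RT versus N_CS at an FDR of 0.01 and 5 were higher, against 20.0% and 22.9% of tested IDs. T_RT versus N_CS is the difference of the contrasts that chose the genes, so nothing is read from these counts.

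The 18 genes under 50% had a median N_CS minus N_RT of 3.12 and a median T_RT minus N_RT of 1.13. Every gene has T_RT minus N_RT of at least 0.8, so a low percent of N_CS goes with a large cold difference in N. The size of that difference in this class is therefore no finding. The extreme case was Os01g0186900, with 453 and 464 CPM in T_CS, 52.3 and 50.1 CPM in T_RT and 615 and 618 CPM in N_CS, against 6.35 and 7.26 CPM in N_RT. No libraries of different groups overlapped. Its mean was 90.6-fold higher in N_CS and 7.53-fold higher in T_RT than in N_RT, and the T_RT level was 8.31% of the N_CS level.

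Os05g0545400 had 17.9 and 16.6 CPM in T_CS, 2.71 and 3.20 CPM in T_RT and 26.8 and 27.5 CPM in N_CS, against 0.901 and 0.518 CPM in N_RT. It stood 38.2-fold higher in N_CS and 4.16-fold higher in T_RT than in N_RT, and its T_RT level was 10.9% of its N_CS level. It follows directly on Os05g0545300, the gene named MAPKKK17_18 in the published lists, in ID order. That neighbour had at most 1.69 CPM in any library and was highest in T_CS, so it did not share the pattern.

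Os04g0517100 had 71.1 and 80.7 CPM in T_CS, 15.8 and 13.9 CPM in T_RT and 77.1 and 81.6 CPM in N_CS, against 6.84 and 8.45 CPM in N_RT. Os02g0584800 had 97.8 and 105 CPM in T_CS, 22.1 and 24.0 CPM in T_RT and 108 and 105 CPM in N_CS, against 12.4 and 10.8 CPM in N_RT. The cold libraries of T and N overlapped in Os04g0517100 and nearly met in Os02g0584800, while T_RT reached 18.7% and 21.7% of N_CS. Os03g0188500 was highest in T_CS, with 53.4 and 53.0 CPM in T_CS, 10.3 and 8.90 CPM in T_RT and 38.0 and 45.0 CPM in N_CS, against 4.14 and 3.42 CPM in N_RT. It stood 2.55-fold higher in T_RT than in N_RT.

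Os07g0680600 was among the most abundant of the 54, with 110 and 118 CPM in T_CS, 58.9 and 58.3 CPM in T_RT and 174 and 171 CPM in N_CS, against 33.0 and 31.0 CPM in N_RT. No libraries of different groups overlapped, and T_RT reached 33.9% of N_CS. The next ID, Os07g0680700, was the closest to the second condition from outside, with T_RT minus N_RT of 0.76, while Os01g0699450 was the closest from inside with 0.83. The other genes in this class were Os01g0186950, Os12g0471100, Os03g0180800, Os01g0955100, Os03g0820300, Os11g0151400, Os03g0315400, Os01g0699500, Os09g0482800, Os01g0905300 and Os01g0972000, with T_RT levels between 8.37% and 44.5% of those in N_CS. Among them, Os03g0180800 stands next to OsJAZ2 (Os03g0180900), which was low in 3 groups and had 37.2 CPM in both T_CS libraries.

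**Figure D3:**
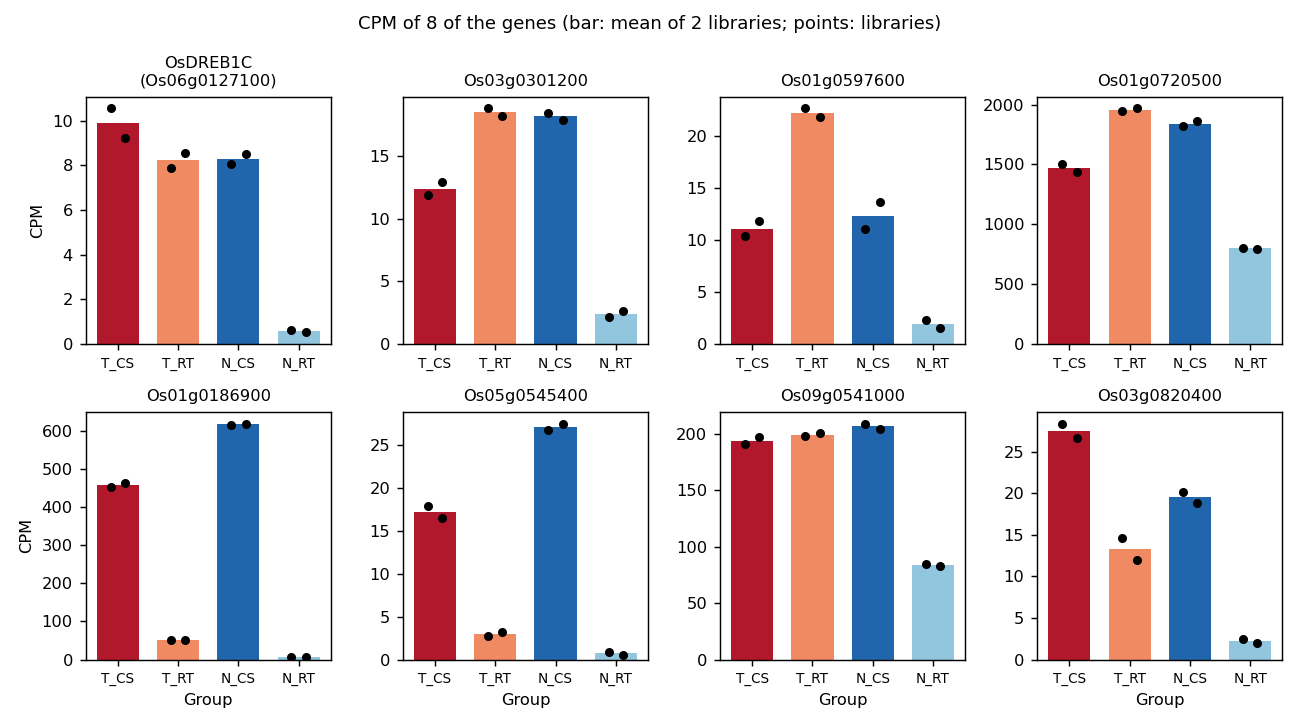
CPM of 8 of the genes by group, each panel on its own linear axis from 0, with bars for the mean of 2 libraries and points for the libraries. OsDREB1C and Os09g0541000 stand at near levels in T_CS, T_RT and N_CS, Os01g0186900 and Os05g0545400 are far lower in T_RT than in either cold group, and Os01g0597600 is highest in T_RT, at 22.6 and 21.7 CPM.

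In the 19 genes between 50% and 100%, the median T_CS minus T_RT was 0.24 and the median T_CS minus N_CS was -0.01. Os09g0541000 had 191 and 197 CPM in T_CS, 198 and 201 CPM in T_RT and 209 and 204 CPM in N_CS, against 84.9 and 82.9 CPM in N_RT. Its T_RT level was 96.6% of its N_CS level and 2.37-fold higher than its N_RT level. The 3 raised groups lay close together, although their libraries did not overlap.

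A group of genes in this class was highest in T_CS. Os03g0820400 had 28.4 and 26.6 CPM in T_CS, 14.7 and 11.9 CPM in T_RT and 20.2 and 18.8 CPM in N_CS, against 2.50 and 1.97 CPM in N_RT. Os03g0302800 had 19.8 and 19.4 CPM in T_CS, 7.53 and 10.2 CPM in T_RT and 15.1 and 14.2 CPM in N_CS, against 1.6 and 1.40 CPM in N_RT. Os04g0571600 had 30.1 and 33.3 CPM in T_CS, 13.3 and 15.2 CPM in T_RT and 23.3 and 23.6 CPM in N_CS, against 4.47 and 2.28 CPM in N_RT. The order of the groups was the same in these 3 genes, without overlap between groups, and T_RT stood 5.95-fold, 5.91-fold and 4.23-fold higher than N_RT.

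Os12g0263100 was the least abundant of the 54. It had 0.142 and 0.738 CPM in T_CS, 1.24 and 1.07 CPM in T_RT and 1.22 and 1.37 CPM in N_CS, against 0.246 and 0.155 CPM in N_RT. Its lower T_CS library lay below both N_RT libraries and its higher one above both. It met the third condition only narrowly, at -0.67. The other genes between 50% and 100% were OsDREB1C and Os01g0795600, Os03g0302850, Os04g0571450, Os07g0429700, Os01g0134700, Os09g0385700, Os07g0656600, Os09g0542900, Os07g0665200, Os11g0484300, Os09g0341600, Os09g0541050 and Os03g0341600.

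In the 17 genes above 100%, the median N_CS minus N_RT was 1.00 and the median T_RT minus N_RT was 1.51. In this class N_CS lies below T_RT by definition, so the order of these medians is set by the class. Os01g0597600 had the largest T_RT minus N_RT of the 54, at 3.01. It had 10.3 and 11.8 CPM in T_CS, 22.6 and 21.7 CPM in T_RT and 11.0 and 13.6 CPM in N_CS, against 2.25 and 1.5 CPM in N_RT. The cold libraries of T and N overlapped, and T_RT was 180% of N_CS and 11.8-fold higher than N_RT.

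Os01g0720500 was the most abundant gene of the 54. It had 1504 and 1441 CPM in T_CS, 1949 and 1969 CPM in T_RT and 1823 and 1861 CPM in N_CS, against 806 and 795 CPM in N_RT. Groups did not overlap, T_RT being highest and N_RT lowest. Os03g0301200 had 11.9 and 13 CPM in T_CS, 18.8 and 18.3 CPM in T_RT and 18.5 and 17.9 CPM in N_CS, against 2.13 and 2.64 CPM in N_RT. Its T_RT and N_CS libraries overlapped and stood 7.77-fold and 7.63-fold higher than N_RT, with T_CS between them and N_RT.

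Os10g0521900 had 9.66 and 11.2 CPM in T_CS, 14.1 and 13.4 CPM in T_RT and 6.77 and 5.80 CPM in N_CS, against 2.79 and 2.95 CPM in N_RT. Here T_RT was 218% of N_CS, and both T groups lay above both N groups. Os01g0821600 had 9.75 and 10.5 CPM in T_CS, 13.7 CPM in both T_RT libraries and 12 and 9.93 CPM in N_CS, against 4.02 and 3.37 CPM in N_RT. Os03g0283200 had 4.12 and 4.11 CPM in T_CS, 9.10 and 7.26 CPM in T_RT and 6.38 and 6.16 CPM in N_CS, against 2.25 and 3.01 CPM in N_RT. In both, T_RT was the highest group, at 125% and 130% of N_CS.

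Os09g0351700 had 10.8 and 12.5 CPM in T_CS, 19.6 and 19.3 CPM in T_RT and 18.5 and 19.8 CPM in N_CS, against 9.55 and 10.3 CPM in N_RT. The T_CS level was little above that of N_RT. Os02g0540700 had 16.4 and 12.6 CPM in T_CS, 16.4 and 14.1 CPM in T_RT and 13.3 and 15 CPM in N_CS, against 4.26 and 3.84 CPM in N_RT. The 3 raised groups overlapped, and T_RT stood 3.77-fold higher than N_RT.

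T_RT was at least 200% of N_CS in 4 genes, of which Os12g0583300 and Os04g0572400 fall outside the rule for naming genes and were picked out after their values were seen. Os12g0583300 had 0.615 and 0.211 CPM in T_CS, 4.82 and 4.35 CPM in T_RT and 0.962 and 1.32 CPM in N_CS, against 0.164 and 0.207 CPM in N_RT, where it had 8 counts in all. Os04g0572400 had 2.04 and 2.48 CPM in T_CS, 7.95 and 5.83 CPM in T_RT and 1.49 and 2.75 CPM in N_CS, against 0.819 and 0.726 CPM in N_RT. In these low genes T_RT stood apart from the other 3 groups, at 401% and 325% of N_CS.

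The other genes above 100% were Os11g0702400, Os11g0227800, Os04g0127300, Os07g0142900, Os10g0416500, Os03g0437200 and Os05g0476700. Os11g0702400 was the nearest to the first condition from inside, at 0.81, with Os02g0758200 nearest from outside at 0.75. It had 0.473 and 0.580 CPM in T_CS, 2.43 and 3.08 CPM in T_RT and 1.14 and 1.48 CPM in N_CS, against 0.328 and 0.311 CPM in N_RT. At the upper edge of the third condition, Os11g0227800 lay inside at 0.66, with 49.2 and 51.9 CPM in T_CS, 33.4 and 35.5 CPM in T_RT and 34.1 and 29.0 CPM in N_CS, against 16.9 and 14.5 CPM in N_RT. The ID nearest to that edge from outside was Os01g0731201 at 0.70, which exceeds 0.7 before rounding, and at the lower edge it was Os06g0133400 at -0.71.

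Within the transgenic seedlings, the difference between cold shock and room temperature followed these classes, which the rule largely sets. T_CS minus T_RT is the sum of differences that the rule used, and the third condition ties it to T_RT minus N_CS, so it is given as a description. Over the 54 genes its median was 0.30 (range -1.98 to 3.14), against -0.10 over all tested Os IDs, 0.43 in the other cold-raised IDs and -0.36 in the other IDs raised in T_RT. It was 1.75 in the class under 50%, 0.24 in the class between 50% and 100% and -0.40 in the class above 100%. Both T_CS libraries lay above both T_RT libraries in 29 of the 54 genes, 18, 9 and 2 by class, against 31.7% of all tested IDs. The reverse held in 15 of the 54, 0, 4 and 11 by class, against 46.7% of tested IDs. These shares use CPM by library total, where the median T_CS minus T_RT of all tested IDs was -0.10. With the TMM scaling of the edgeR fits that median was -0.01, so the uneven shares are not read as a majority of genes lowered in T_CS. In edgeR, 27 genes were higher in T_CS versus T_RT and 8 lower at an FDR of 0.01, each against 26.2% of tested IDs. The 8 lower genes all belonged to the class above 100%. Nothing is read from the split by class.

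**Figure D4:**
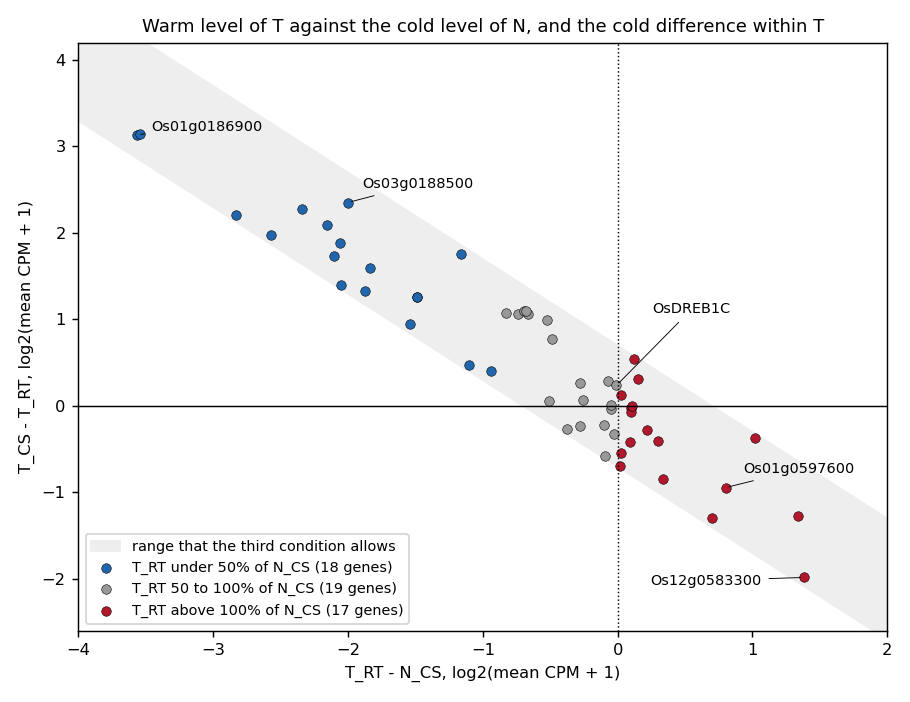
T_RT minus N_CS (horizontal axis) against T_CS minus T_RT (vertical axis) for the 54 genes, both on the log2(mean CPM + 1) scale, coloured by the T_RT level as a percent of the N_CS level. The grey band is the range that the third condition allows, so the slope is set by the rule. Points run from Os01g0186900, with T_CS minus T_RT of 3.14, to Os12g0583300, with -1.98.

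The third condition held the cold levels of both genotypes near each other on the log2(CPM + 1) scale. The added 1 shrinks differences of low genes, so their CPM could still lie apart. In Os12g0583300, Os11g0702400 and Os12g0263100 both T_CS libraries lay below both N_CS libraries. None of these low genes met the rule with 0.25 added in place of 1. T_CS minus N_CS had a median of -0.16 over the 54 genes, against -0.10 over all tested Os IDs. It was below 0 in 35 of the 54. Both N_CS libraries lay above both T_CS libraries in 28 of the 54 genes, against 46.0% of tested IDs. The reverse held in 13 of the 54, against 28.9% of tested IDs. These shares also use library totals, and with TMM scaling the median T_CS minus N_CS of all tested IDs was -0.04 in place of -0.10. In T_CS versus N_CS, 11 genes were higher and 16 lower at an FDR of 0.01, against 21.4% and 20.9% of tested IDs. This contrast was part of the rule, and nothing is read from its counts. The highest group was N_CS in 26 genes, T_CS in 15 and T_RT in 13. The rule bears on this order too and no share over all IDs is given, so nothing is read from it.

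The first part of a rice gene ID gives its chromosome, and the 54 genes lay on all 12 chromosomes but 8. Chromosomes 1 and 3 held 12 and 11 of them, chromosome 9 held 7, chromosomes 4 and 7 held 5 each, and the others 1 to 4 each. This came to 0.297% of the tested IDs of chromosome 1, 0.298% of chromosome 3 and 0.460% of chromosome 9, against 0.192% over all chromosomes. Adjacent IDs were both among the 54 in 6 cases. In 5 of them the pair had counts within 2-fold of each other in all 8 libraries, namely Os01g0186900 with Os01g0186950, Os01g0699450 with Os01g0699500, Os03g0302800 with Os03g0302850, Os04g0571450 with Os04g0571600, and Os09g0541000 with Os09g0541050. Such pairs may share reads of overlapping or antisense models or of near-identical copies, as the strand setting and the handling of shared reads are not stated, so the values of these 10 genes are uncertain. Counting each pair once leaves 49 genes.

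The other adjacent pair differed in pattern. Os03g0820300, in the class under 50%, had 29.1 and 28.2 CPM in T_CS, 7.08 and 6.98 CPM in T_RT and 32.0 and 32.9 CPM in N_CS, against 3.93 and 3.01 CPM in N_RT, so that T_RT was 21.6% of N_CS. In Os03g0820400 next to it, T_RT was 68.1% of N_CS. Of 71 tested neighbours that are not among the 54, 7 (9.86%) had N_CS minus N_RT of at least 0.8, against 1.51% of all tested Os IDs. The T_RT minus N_RT difference reached 0.8 in 6 (8.45%), against 1.43% of all tested Os IDs. No test of these shares was made, and neighbours may share reads with the 54 genes. Both were reached by 1 ID, Os01g0699600, which follows Os01g0699500 and was excluded for a T_CS level 1.11 below its N_CS level. Over the 71 neighbours the median N_CS minus N_RT was -0.06 and the median T_RT minus N_RT was 0.02.

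Which genes met the rule depended on its settings and to a lesser degree on single libraries. With TMM scaling, which allows for differences in library composition, 62 IDs met the rule, including 52 of the 54. Os10g0521900 and Os11g0227800 were the genes that no longer met it. With 0.25 added to the CPM in place of 1, 105 IDs met it, including 48 of the 54, and with 4 added 27 did, 26 of them among the 54. Leaving out each library in turn gave 49 to 62 IDs, and 35 of the 54 were kept in all 8 cases. Taking N_RT replicate 1 for the cold difference and N_RT replicate 2 for the transgenic difference gave 53 IDs, 51 of them among the 54, and the reverse gave 53, with 49 among the 54. Both N_RT libraries come from the same pool, so this separates library error only.

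**Figure D5:**
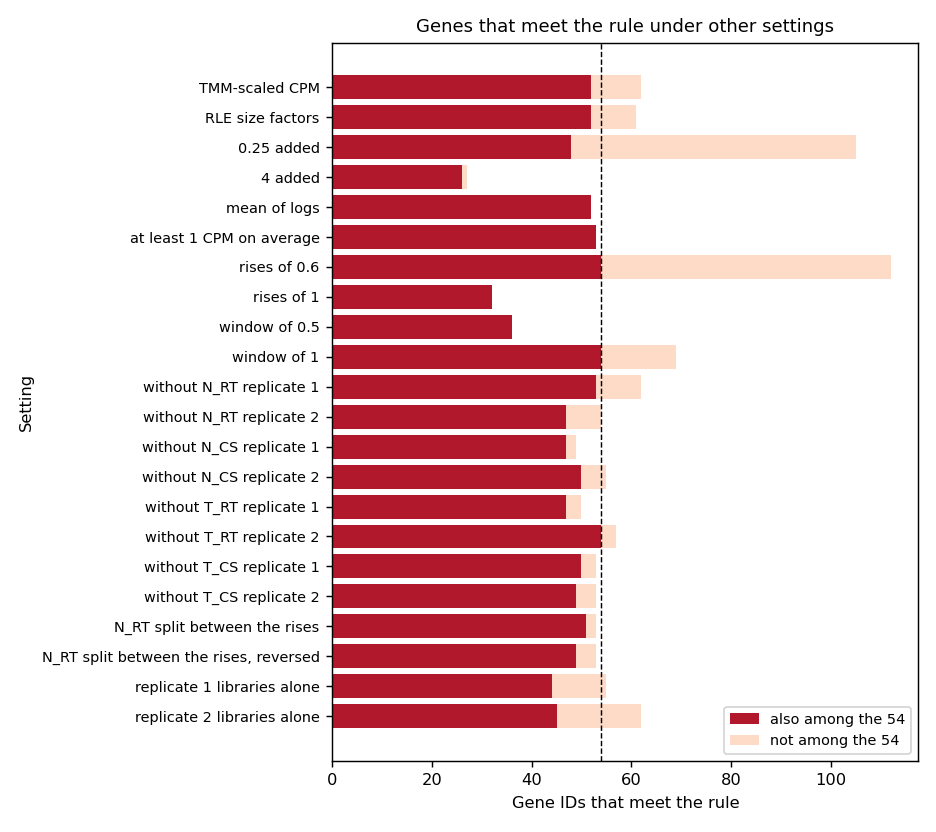
Number of gene IDs that meet the rule (horizontal axis) under each alternative setting, split into those among the 54 (dark) and others (pale), with a dashed line at 54. Between 27 IDs (4 added) and 112 IDs (rises of 0.6) met it, and leaving out single libraries gave 49 to 62.

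The choice could be repeated on libraries that had not made it. On the replicate 1 libraries alone, 55 IDs met the rule. In the replicate 2 libraries all 55 had both differences above 0, and 49 reached 0.8 in N_CS minus N_RT and 43 in T_RT minus N_RT, with medians of 1.71 and 1.13. On the replicate 2 libraries alone, 62 IDs met the rule. In the replicate 1 libraries 60 had N_CS minus N_RT above 0 and 60 had T_RT minus N_RT above 0, and 47 and 44 reached 0.8, with medians of 1.38 and 1.07. Both choices shared 36 IDs. All 36 are among the 54, which follows from taking the mean of both libraries and is no finding. As the replicates are technical, this shows how far the values repeat within a pool.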

How the data were processed

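RNA was sequenced as poly(A) libraries from a directional kit, 2 for each of 4 pools. The authors trimmed reads with Trimmomatic, aligned them with STAR to IRGSP-1.0 and ran featureCounts 1.6.4. The deposited values are whole-number counts per gene ID whose totals differ. They were taken as raw, although the methods call them normalized. The strand setting is not given in the sources used here. CPM were computed from library totals, with 1 added before log2 was taken. Of 38978 IDs, 28218 passed filterByExpr (minimum count 10, minimum total 15) and were fitted in R 4.3.3 with edgeR 4.0.16 (quasi-likelihood, TMM, 1 mean per group, 8 libraries, Benjamini-Hochberg adjustment over all IDs tested, FDR 0.01). DESeq2 1.42.0 was an alternative. The fits were tested on simulated data. TMM factors shifted the median of all IDs by under 0.1, and at most by 0.09.

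The genes and lists were chosen with earlier results of these data known. Named were OsDREB1C and, among the 43 genes averaging at least 5 CPM, the 12 with the largest T_RT minus N_RT, the 6 lowest and 6 highest in T_CS minus T_RT and the 6 most abundant, and the genes nearest to each threshold, 26 in all. The other IDs are listed to account for every gene. Promoter motifs, annotated families and tissue markers were not analysed here, since the reference table used here could not be matched to the IDs. The comparison of T_RT with N_CS, the count of genes below N_CS and the count with 1 ID per near-equal pair were added after seeing the data.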

Additional observations from a re-analysis of the deposited data

Results flagged for a closer look

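In 10 of the named genes the cold shock went with a difference of opposite sign in the 2 genotypes. Both T_CS libraries lay below both T_RT libraries while both N_CS libraries lay above both N_RT libraries. On the log2(mean CPM + 1) scale, T_CS minus T_RT was -1.30 in Os11g0702400, -0.94 in Os01g0597600, -0.84 in Os03g0283200, -0.69 in Os09g0351700, -0.58 in Os12g0263100 and -0.54 in Os03g0301200. It was -0.41 in Os01g0720500, -0.40 in Os01g0821600, -0.37 in Os10g0521900 and -0.039 in Os09g0541000. Over all 54 genes this held in 15 (27.8%), and over all tested IDs in 2174 (7.70%). In edgeR, the log2 fold change with cold in T minus that in N lay between -4.38 in Os11g0702400 and -1.33 in Os09g0541000 over these 10 genes. It is made up of contrasts that chose the genes and is given as a description, with no test. The rule favours this sign, since it asks for a higher N_CS, a higher T_RT and like cold levels, so the share among the 54 is no finding. In Os09g0541000 the sign changed with TMM scaling in edgeR, where the log2 fold change T_CS versus T_RT was 0.08. In Os12g0263100, whose T_CS libraries lay far apart, that fold change ran from -2.85 to -0.52 with single libraries left out.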

How the results depend on the processing

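The number of genes meeting the rule moved by over 1.5 times with 0.25 added (105), with 4 added (27), with differences of at least 0.6 (112) and of at least 1 (32). It was 49 to 62 with single libraries left out and 36 to 69 under the other settings. With the fold thresholds of the methods (log2 fold change of at least 2 or at most -1), 33 of the 54 passed in N_CS versus N_RT and 20 in T_RT versus N_RT. With those thresholds 9 were higher and 3 lower in T_CS versus T_RT, 0 higher and 2 lower in T_CS versus N_CS, and 0 higher in T_RT versus N_CS, where they only drop genes with smaller changes. DESeq2 passed 6 genes as higher in T_CS versus N_CS, against 11 in edgeR, and the cause was not tested. Leaving out single libraries gave 26 to 27 higher and 8 to 10 lower in T_CS versus T_RT, 53 to 54 in N_CS versus N_RT and in T_RT versus N_RT, 8 to 11 higher and 13 to 16 lower in T_CS versus N_CS, and 4 to 6 higher and 27 lower in T_RT versus N_CS. The median T_CS minus T_RT was 0.28 to 0.41, and 35 to 40 genes had T_RT below N_CS.

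Replicate numbers do not pair the libraries, since deviations of libraries with the same number correlated between -0.01 and 0.01. With the number as a block, 27 genes were higher and 8 lower in T_CS versus T_RT, as without it, and 10 were higher and 14 lower in T_CS versus N_CS. Of the T_CS versus T_RT fold changes of named genes, 332 values kept their direction and side of the threshold, Os02g0540700 (0.05, no call) changed sign without T_RT replicate 2 (-0.06) and T_CS replicate 1 (-0.16; range -0.16 to 0.22), Os09g0541050 lost its call without T_RT replicate 1, T_RT replicate 2 or T_CS replicate 2 (0.09 to 0.15), and Os12g0263100 gained one without T_CS replicate 2 (-2.85). The motif search was not run.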
